A study of Caenorhabditis elegans with 36 samples.

Results

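Chromatin carrying histone H3 trimethylated at lysine 9 (H3K9me3) was compared in wild-type (WT) Caenorhabditis elegans between 3 generations held at 23 °C and 2 generations returned to 15 °C after them. The members of this comparison are 5 of the 36 libraries of the series, chosen by their labels alone: WT H3K9me3 ChIP-seq of generations 2, 4 and 6 under heat (23C-G2, 23C-G4, 23C-G6) against generations 1 and 2 after heat (p15C-G1, p15C-G2). Within each group, values follow the order of generations. WT is strain N2. The WT libraries of 15C-G3, the generation 3 at 15 °C before the shift, and the hrde-1(tm1200) libraries of the same generations stand beside them as values, as do the Pol II (an antibody to the elongating, serine 2 phosphorylated form of RNA polymerase II) and input libraries of the same cultures. The hrde-1 strain lacks the germline nuclear Argonaute HRDE-1 and went through the same shift.

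The animals were synchronized whole young gravid adults on OP50 bacteria, so a level is an average over germline, embryos and soma. Fewer cells of a type and a lower level per cell cannot be told apart. Each strain was 1 lineage, all libraries are from the second repeat of the study, and the replicates of a group are successive generations, so p-values measure only the spread between these generations. Adults were collected fewer hours after release of the L1 larvae at 23 °C than at 15 °C. The recovery generations also came after all heat generations, so temperature, collection age and order of generation cannot be told apart. By the methods of the study, the shift to 15 °C began at the embryo step for p15C-G1, so these animals were conceived by parents kept at 23 °C.

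H3K9me3 is a mark of heterochromatin. In C. elegans it is placed mainly by the methyltransferases MET-2 and SET-25 with SET-32 at some loci, is rich on the arms of the autosomes and over repeats, and is poor over broadly transcribed genes. In the germline nuclear RNAi pathway small RNAs bound by HRDE-1 guide H3K9me3 and transcriptional silencing to target genes, and the silenced state can be inherited. The comparison asks where the mark of heated generations differs from that of generations that descend from them at the lower temperature.

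The unit is RPKM, reads of a gene divided by its length in kb and by the megareads (M) of its library, and changes are 23C minus p15C on the scale log2(RPKM + 1), for 20167 genes. The 5 libraries held an estimated 2.91 M, 2.93 M and 7.97 M reads at 23C, against 5.78 M and 5.96 M at p15C. The input libraries of WT were shallower, at 0.230 to 0.790 M reads, so a change of input at 1 gene is known poorly. Over all genes, H3K9me3 of any 2 of the WT libraries correlated at r of 0.937 to 0.978, with the closest pair being p15C-G1 and p15C-G2. The Pol II libraries carried strong germline signal. The 31 germline and oocyte markers summed to 1261 to 1968 RPKM of Pol II in the 23C libraries and 1554 to 1905 RPKM in the p15C libraries, and no marker of any of 7 cell type lists was under 1 RPKM in all of them.

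No gene passed the test. With limma over the 12 H3K9me3 libraries and Benjamini-Hochberg adjustment, 0 genes were higher and 0 lower at an adjusted p of 0.1 (0% called), and 0 changed by 2-fold. At an unadjusted p under 0.05 there were 778 genes higher (3.86%) and 589 lower (2.92%), together 6.78% of the genes tested. The same contrast by limma-voom on estimated reads called 61 genes higher (0.302%) and 64 lower (0.317%), 0.62% together. The smallest adjusted p was 0.11, shared by 6 genes that were lower at 23C. The 95% confidence interval of a gene's change reached 0.30 to either side of the estimate for the median gene, and 99.0% of genes had a change within 0.5. The range of changes was −0.90 to 0.96, with a median of 0.01. The contrast in the input libraries likewise called 0 genes, with 1325 at an unadjusted p under 0.05 (6.57%; 2.93% higher and 3.64% lower) and with no other tool run on it.

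The gene-level changes were not spread evenly along the chromosomes. The place that stood out was a 500 kb stretch near the left end of chromosome X, X:1500001-2000000 in the WS190 assembly, where H3K9me3 was lower at 23C. It was found by a fit on 250 kb windows, which was added after the gene results were seen. That fit used the median of the genes of each window in each library and called 11 of 402 windows higher (2.74%) and 3 lower (0.746%), with 36 windows at an unadjusted p under 0.05. The window X:1750001-2000000 fell by 0.55 in log2 units (SE 0.085, adjusted p by limma 5.4e-08). Its 43 genes had a median of 13.7, 13.2 and 11.7 RPKM at 23C, against 17.2 and 21.5 RPKM at p15C. All 3 heat generations lay below both recovery generations and also below the 15.08 RPKM of 15C-G3, which lay below both recovery generations as well. The neighbouring window X:1500001-1750000 was lower at 23C than at p15C by 0.28 (SE 0.091, limma adjusted p = 0.069), with medians of 14.8, 15.2 and 14.7 RPKM at 23C, against 17.4 and 19.3 RPKM at p15C. Window p-values rest on a spread pooled over windows. The first of these windows was called in all 10 fits that left out 1 library, the highest adjusted p being 0.0698 without p15C-G2, and the second in 5 of the 10, not among them the fit without p15C-G2 (adjusted p = 1.00).

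Within the stretch the lower level was shared by nearly every gene, and it ended abruptly on one side. Of its 79 genes, 77 had a change below 0 and 61 had all 3 heat libraries below both recovery libraries (77.2%, against 9.49% of all genes). There were 56 at an unadjusted p under 0.05 and lower (70.9%, against 2.92%). By limma 0 passed the adjusted test, and limma-voom called 37 of the 79 lower. These counts describe a stretch that the same libraries picked out. The median change grew along it in steps of 100 kb, from left to right −0.15, −0.32, −0.35, −0.46 and −0.56, and in the next 100 kb it was −0.04. On the left side the 100 kb before the stretch had −0.15 and the 100 kb before that −0.18, so the left border was gradual. In that last step of the stretch 17 of 18 genes were lower at an unadjusted p under 0.05, and in the step just past the right border 1 of 18. Over the 500 kb on each side together, 168 genes had a median change of −0.03.

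**Figure D1:**
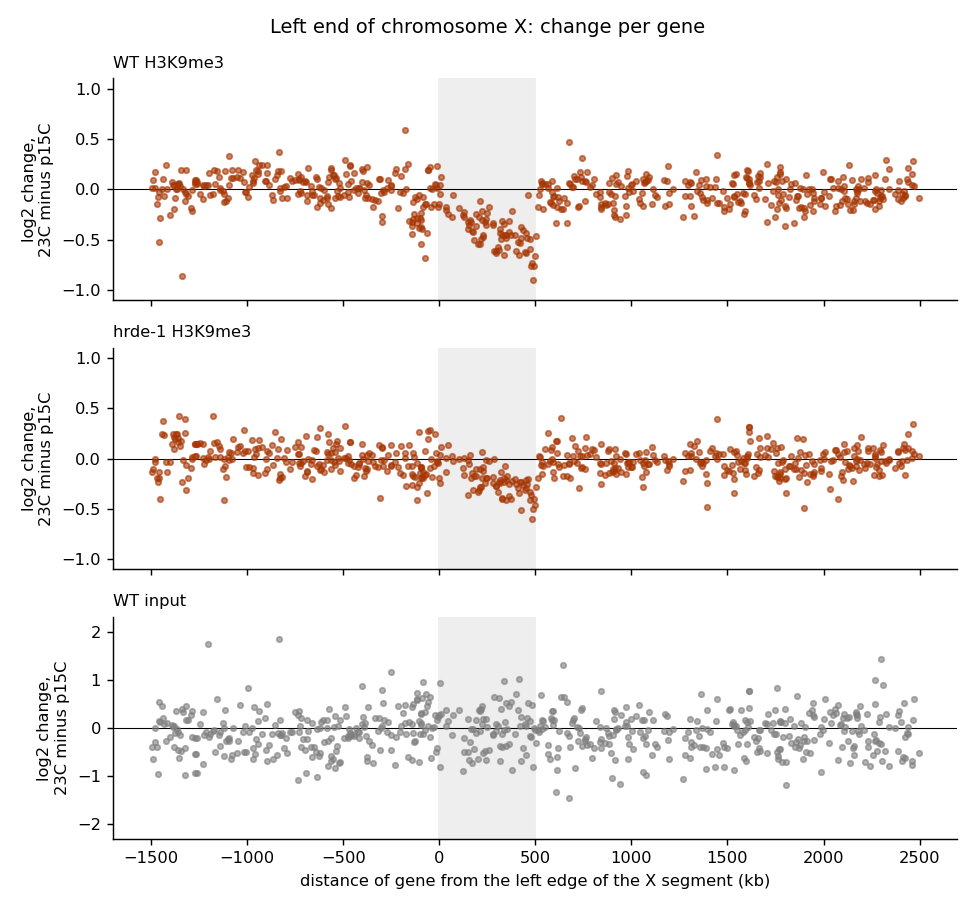
Change per gene (23C minus p15C, log2(RPKM + 1)) against distance in kb from the left edge of the X segment, for WT H3K9me3, hrde-1 H3K9me3 and WT input from top to bottom; each point is 1 gene and the grey band is the 500 kb segment. The points slope down across the band to a median of −0.56 in its last 100 kb in WT and return to −0.04 past its right edge. The hrde-1 points slope down to a median of −0.32 in that last 100 kb. The input points, on a wider axis, have medians of −0.30 to 0.27 in the 100 kb steps of the band.

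The hrde-1 libraries, which entered the fit that picked the stretch only through its pooled spread, also had lower values at 23C there. The median change of the 79 genes was −0.21 in hrde-1, and in the 100 kb steps it was 0.00, −0.15, −0.19, −0.24 and −0.32, followed by −0.04 past the right border. In the window X:1750001-2000000 the hrde-1 medians on the log2 scale were 3.94, 3.87 and 3.92 at 23C, against 4.14 and 4.19 at p15C, with no overlap. That change of −0.26 had an unadjusted p of 0.0024 and an adjusted p of 0.81 by limma over the 402 windows, so it did not pass. The difference between WT and hrde-1 in this window was −0.29 (SE 0.12, adjusted p = 0.80), so the decrease is not shown to be larger in WT.

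Input and Pol II of the stretch as a whole had median changes near 0. The input change over the 79 genes had a median of 0.00, and the median input of the window X:1750001-2000000 was 9.41, 9.19 and 8.81 RPKM at 23C, against 8.997 and 9.99 RPKM at p15C. In steps of 100 kb from left to right the median input change was 0.27, −0.30, 0.05, −0.03 and 0.04. The second step was thus close to its H3K9me3 change of −0.32, and the part of input there was not tested. The Pol II change had a median of −0.09 with 0 of 78 genes called, at a low level of 1.51 to 2.13 RPKM for the median gene at 23C and 1.76 to 2.45 RPKM at p15C. The stretch is poor in Pol II, whose median over all genes was 4.10 to 5.04 RPKM at 23C and 4.24 to 5.04 RPKM at p15C.

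The genes of the stretch include regulators of development and of the germline, named here after their values were seen except where stated. The homeobox genes ceh-41, ceh-21 and ceh-39 lie side by side, and ceh-39 is one of the X-linked signals by which the X chromosome dose sets sex. ceh-39 had 7.53, 8.34 and 8.56 RPKM of H3K9me3 at 23C, against 10.8 and 14.5 RPKM at p15C, a change of −0.57 (SE 0.14, unadjusted p = 6.75e-04, limma adjusted p = 0.27). The changes of ceh-21 and ceh-41 were −0.46 and −0.49. dot-1.5, of the family of DOT1 histone methyltransferases, had 13.03, 11.5 and 11.4 RPKM at 23C, against 16.7 and 18.8 RPKM at p15C, and 15.4 RPKM in 15C-G3. The T-box genes tbx-31 and tbx-32, which encode DNA-binding regulators, had changes of −0.41 and −0.35. In 15C-G3 tbx-31 had 21.3 RPKM, within its range at 23C, and tbx-32 had 15.6 RPKM, below all 3 of its heat libraries. The highest H3K9me3 among these was at arg-1, a ligand of the Notch family of receptors, with 34.0, 29.4 and 39.1 RPKM at 23C, against 47.1 and 58.1 RPKM at p15C. Its level in 15C-G3, 38.3 RPKM, lay within its range at 23C. rgs-8.1 and rgs-8.2, regulators of G protein signalling with near-identical values, had changes of −0.63 and −0.62, and their reads may be split between the copies. The exceptions were tts-1, a noncoding RNA gene with strong Pol II of 63.0, 64.3 and 68.3 RPKM at 23C against 79.8 and 75.5 RPKM at p15C, and toca-1, whose changes of H3K9me3 were 0.04 and 0.13. Both lie at the left edge. F52D2.7, deep in the right part, had a change of only −0.06.

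Of the 10 genes with the smallest p in the lower direction, 8 lie on the left part of X, 6 of them inside the stretch. None passed the adjusted test of limma, whose adjusted p is the one given below, and limma-voom called all 10 (adjusted p 7.69e-05 to 0.0241). meg-3 (X:1986519-1989600) encodes a disordered protein of P granules, the germline RNA granules of the embryo. It had 15.2, 17.2 and 12.8 RPKM of H3K9me3 at 23C, against 23.8 and 34.8 RPKM at p15C, and 22.6 RPKM in 15C-G3. The means were 15.08 ± 2.21 (SD, n = 3) at 23C and 29.3 ± 7.75 (SD, n = 2) at p15C, the groups did not overlap, and the change of −0.90 (SE 0.16, adjusted p = 0.11) was the lowest of all genes. Input at meg-3 was also lower, at 7.13, 7.46 and 6.36 RPKM at 23C, against 13.025 and 13.007 RPKM at p15C. That input change was −0.81 (limma unadjusted p = 0.012, adjusted p = 0.74), and its part in the H3K9me3 change was not tested. At F52D2.6, fbxa-46 and rgs-9, also in the stretch, input changes were −0.19, 0.48 and 1.02. The meg-3 paralog meg-4, 300 kb away within the stretch, had 21.6, 23.4 and 27.0 RPKM of H3K9me3 at 23C, against 32.1 and 36.8 RPKM at p15C, a change of −0.51. The meg-4 level in 15C-G3, 26.1 RPKM, lay within its range at 23C. The related meg-1 and meg-2, on another part of X, had changes of −0.32 and −0.17.

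Beside meg-3 lie F52D2.6, the F-box pseudogene fbxa-46 and Y40A1A.2. F52D2.6 (X:1974908-1980932) had 11.6, 12.8 and 12.9 RPKM at 23C, against 18.5 and 25.6 RPKM at p15C, a change of −0.76. fbxa-46 (X:1983709-1984431) had 8.18, 8.54 and 6.99 RPKM, against 11.8 and 15.97 RPKM at p15C, a change of −0.73. Y40A1A.2 (X:1990729-1991761) had 11.7, 8.41 and 10.2 RPKM, against 15.9 and 19.6 RPKM, a change of −0.76. In all 3 of these genes every heat library was below both recovery libraries, and the adjusted p was 0.11. rgs-9 (X:1915260-1917072), a regulator of G protein signalling, had 17.8, 14.3 and 15.26 RPKM at 23C, against 23.5 and 27.2 RPKM at p15C (change −0.65, adjusted p = 0.20). F31A9.1 (X:1797401-1797832) had the tightest groups, 17.1, 17.4 and 16.9 RPKM at 23C, against 26.9 and 27.3 RPKM at p15C (change −0.63, adjusted p = 0.21). Its level in 15C-G3, 16.53 RPKM, was below those of all 3 heat generations. F19G12.3 (X:1425723-1426160), just left of the stretch, had 11.5, 12.57 and 13.5 RPKM, against 20.1 and 21.2 RPKM (change −0.68, adjusted p = 0.11). Y73B3A.1 (X:42875-47060), near the chromosome end, had 5.60, 5.59 and 6.10 RPKM, against 8.93 and 8.52 RPKM (change −0.53, adjusted p = 0.23).

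The other 2 of the 10 were prg-1 and lido-8. prg-1 (I:7585320-7588356) encodes the Piwi Argonaute that binds piRNAs in the germline. It had 2.98, 2.71 and 2.92 RPKM of H3K9me3 at 23C, against 5.45 and 5.11 RPKM at p15C, and 6.16 RPKM in 15C-G3 (change −0.70, SE 0.14, adjusted p = 0.21). These levels were below its mean input of 10.2 RPKM at 23C and 10.8 RPKM at p15C, so the gene is poor in the mark in every group. D2030.12, which ends right beside it and can share reads with it, had 2.54, 5.07 and 3.88 RPKM at 23C, against 6.64 and 7.97 RPKM at p15C.

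**Figure D2:**
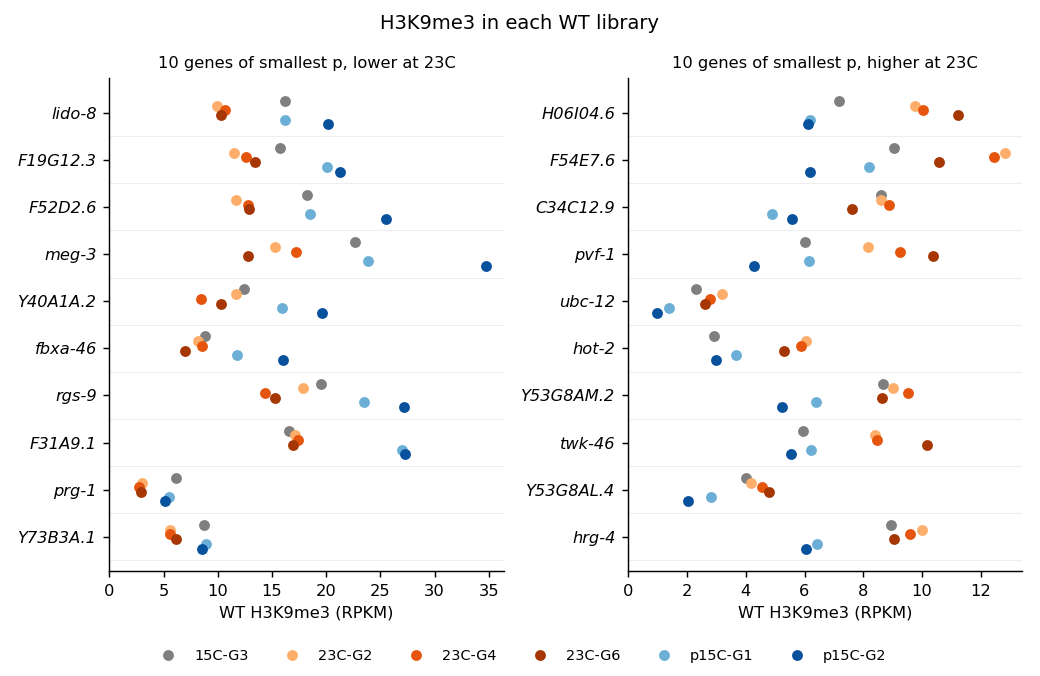
H3K9me3 (RPKM, linear axis) in each of the 6 WT libraries at the 10 genes of smallest p in each direction, lower on the left and higher on the right; each point is 1 library, orange shades are 23C, blue shades are p15C and grey is 15C-G3. At all 20 genes the 3 heat points lie on one side of both recovery points, and at meg-3 they are 12.8 to 17.2 against 23.8 and 34.8 RPKM.

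lido-8 (II:2997016-3000648) is the first of 5 neighbouring genes, lido-8 to lido-12, on the left arm of chromosome II, and had the smallest p of all genes. It had 9.93, 10.6 and 10.32 RPKM of H3K9me3 at 23C, against 16.22 and 20.2 RPKM at p15C, and 16.24 RPKM in 15C-G3. The mean of 10.29 ± 0.348 (SD, n = 3) at 23C stood against 18.2 ± 2.80 (SD, n = 2) at p15C, a change of −0.76 (SE 0.12, adjusted p = 0.11). In the hrde-1 libraries, which entered the WT test only through the pooled spread, it had 9.51, 8.3996 and 7.52 RPKM at 23C, against 14.2 and 16.50 RPKM at p15C, and it passed the test there with a change of −0.79 (limma adjusted p = 0.0498). It was the 1 gene called lower in hrde-1 (0.00496% of genes). That call held in 4 of 10 fits that left out 1 library, an alternative chosen after seeing the data. The limma adjusted p was 0.102 without WT 23C-G4 and 0.126 without WT 23C-G6, and it was 0.319 once 23C-G4 of hrde-1 was omitted and 0.420 once its 23C-G6 was. It was 0.258 on leaving out p15C-G1 of hrde-1 and 1.00 on leaving out its p15C-G2.

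Pol II rose at 4 of the 5 genes of this cluster. The cluster was chosen for this description after its values were seen, and since the genes lie closer to each other than the 999 bp by which the counted regions exceed the genes, neighbours share reads. lido-10 had 37.4, 35.1 and 37.2 RPKM of Pol II at 23C, against 16.397 and 15.996 RPKM at p15C, and 15.0 RPKM in 15C-G3. That is a log2 change of 1.13 (limma adjusted p = 0.0038). lido-11 had 24.3, 23.2 and 22.6 RPKM, against 8.50 and 9.179 RPKM (change 1.31, adjusted p = 0.0038). Both were about as high in the first heat generation sampled as in the last, and both recovery generations were at the level of 15C-G3. lido-9 had 39.00, 29.8 and 35.2 RPKM, against 16.6 and 18.6 RPKM (change 0.93, adjusted p = 0.0226), and lido-12 had 15.2, 21.97 and 19.5 RPKM, against 9.19 and 9.24 RPKM (change 0.95, adjusted p = 0.0342). The Pol II change of lido-8 itself was 0.49 and did not pass (adjusted p = 0.36). These calls depended on single Pol II libraries. Without p15C-G2 no gene was called higher, and lido-10 and lido-11 then had adjusted p of 0.18 and 0.16 with changes of 1.11 and 1.36. Of the 5 fits that left out 1 WT library, lido-9 was called in 3 and lido-12 in 2. Without p15C-G1 both had an adjusted p of 0.37, without 23C-G4 lido-12 had 0.13, and with each library centred on its median lido-9 had 0.10 and was not called.

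Input had changes above 0 in the same cluster, 0.75, 0.93, 0.55, 0.39 and 0.20 from lido-8 to lido-12. At lido-9 input had 19.4, 19.3 and 21.04 RPKM at 23C, against 12.27 and 8.06 RPKM at p15C, so its change was as large as that of Pol II (unadjusted p = 0.0067). The unadjusted p was 0.034 at lido-8, and none of the 5 passed the adjusted test (limma adjusted p 0.74 to 0.91). The part of input in the Pol II and H3K9me3 values of the cluster was not tested.

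The H3K9me3 changes ran the other way in all 5 genes and were largest at the left end of the cluster, at −0.76, −0.65, −0.22, −0.20 and −0.32 from lido-8 to lido-12. lido-9 had 10.4, 11.4 and 11.11 RPKM of H3K9me3 at 23C, against 14.6 and 21.3 RPKM at p15C (unadjusted p = 3.89e-04). lido-12 had 13.5, 14.6 and 13.7 RPKM, against 17.1 and 18.3 RPKM. In lido-11 the groups overlapped. Of the 13 other lido genes measured, which lie on X, II and III, none had a Pol II call, and their H3K9me3 changes were −0.42 to 0.10.

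**Figure D3:**
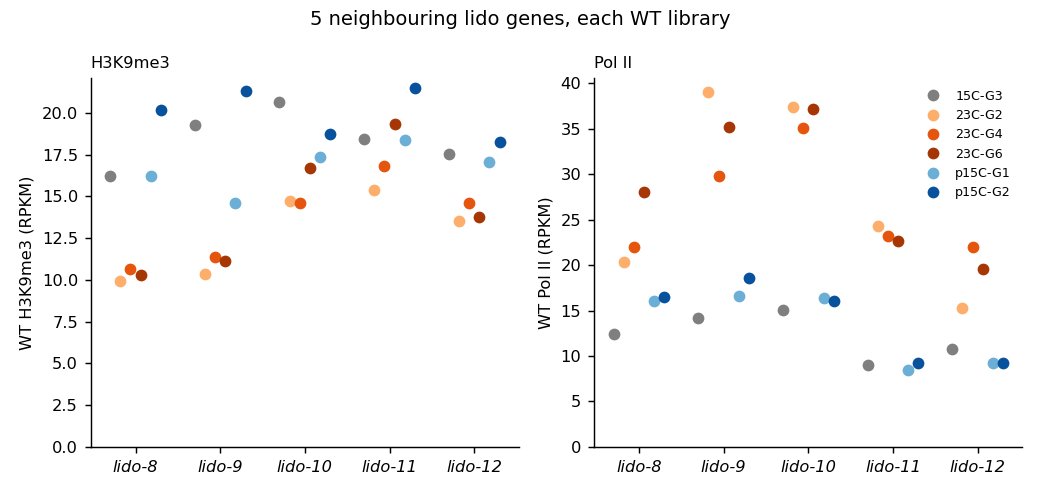
H3K9me3 (left) and Pol II (right), in RPKM from 0, at the 5 neighbouring lido genes of chromosome II; each point is 1 WT library, coloured by generation, grey before heat, orange shades under heat and blue shades after it. At lido-8 and lido-9 the 23C points are 9.93 to 11.4 RPKM of H3K9me3 and lie below the others, and at lido-10 they are 35.1 to 37.4 RPKM of Pol II and lie above the others.

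Of the 10 genes of smallest p in the higher direction 6 lie on III, 2 on V, 1 each on I and IV and none on X. None passed the adjusted test of limma (adjusted p 0.16 to 0.24), and limma-voom called 7 of them (adjusted p 0.00345 to 0.0985). H06I04.6 (III:3061194-3063292) had 9.75, 10.0 and 11.2 RPKM at 23C, against 6.201 and 6.12 RPKM at p15C (change 0.66). F54E7.6 (III:5659841-5661037) had 12.8, 12.5 and 10.6 RPKM, against 8.196 and 6.19 RPKM (change 0.67). pvf-1 (III:1821189-1824103), a growth factor of the PDGF and VEGF family, had 8.16, 9.26 and 10.4 RPKM, against 6.15 and 4.29 RPKM (change 0.73). In each the heat libraries were above both recovery libraries. twk-46 (V:19060144-19066924), a potassium channel of the 2-pore type, had 8.39, 8.48 and 10.2 RPKM, against 6.21 and 5.54 RPKM, and hot-2 (V:19185119-19187863), in the same arm, had 6.05, 5.89 and 5.29 RPKM, against 3.65 and 3.00 RPKM. hrg-4 (IV:11030189-11031076), a heme transporter, had 10.0, 9.60 and 9.04 RPKM, against 6.42 and 6.04 RPKM. ubc-12 (I:11911314-11912039), the enzyme that conjugates NEDD8, had the largest change of the 10, 0.82, at levels of 3.18, 2.77 and 2.62 RPKM, against 1.405 and 0.972 RPKM, far below its input of 11.11 RPKM at 23C and 13.3 RPKM at p15C. The remaining 3 were C34C12.9, Y53G8AM.2 and Y53G8AL.4 on III, with changes of 0.59, 0.57 and 0.69.

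The windows that rose were mostly on chromosome III. Of the 11, 7 were on III, with 2 on V and 1 each on I and IV. I:1250001-1500000 rose by 0.51 (SE 0.093, adjusted p = 1.3e-05), its 29 genes having a median of 5.76, 7.39 and 7.26 RPKM at 23C, against 5.09 and 3.91 RPKM at p15C. III:5500001-5750000 rose by 0.48 (adjusted p = 1.6e-04), with medians of 6.05, 5.42 and 4.59 RPKM, against 3.86 and 3.21 RPKM. V:19000001-19250000, which holds twk-46 and hot-2, rose by 0.31 (adjusted p = 1.6e-04). All of these depended on p15C-G2, the library with the widest range of levels: without it 0 windows were called higher and 1 lower, and the adjusted p of the I, III and V windows named here was 0.48. With each library centred on its median, 1 window was called higher and 1 lower. In hrde-1 0 windows were called, with 11 at an unadjusted p under 0.05, and the difference between the strains also called 0 windows, with 14 at an unadjusted p under 0.05. No other tool was run on windows.

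In RPKM as deposited, the median change was lower where the level of the mark was higher. Genes were put in 10 equal classes by H3K9me3 in WT 15C-G3, a library outside the contrast. The median change was 0.14 in class 1, the lowest, and was lower in each class after it, down to −0.10 in class 10, the highest. Genes of class 1 had a median of 2.23, 2.37 and 2.18 RPKM at 23C, against 2.06 and 1.83 RPKM at p15C. Of its 2017 genes, 184 were higher (9.12%) and 8 lower (0.397%) at an unadjusted p under 0.05. The 2017 genes of class 10 had 10 higher (0.496%) and 168 lower (8.33%), with medians of 17.3, 18.3 and 20.7 RPKM at 23C, against 18.9 and 20.9 RPKM at p15C. Over all genes 3.86% were higher and 2.92% lower. The SD of log2 levels over genes was 0.81, 0.80 and 0.84 in the heat libraries, against 0.85 and 0.91 in the recovery libraries and 0.82 in 15C-G3. All 3 heat values were below both recovery values, at an exact permutation p of 0.2 (two-sided), which is the smallest that 3 against 2 libraries allow. Without p15C-G2 the medians of class 1 and class 10 were 0.08 and −0.03, and without 23C-G2 they were 0.15 and −0.04. After quantile normalization, which gives every library the same distribution, they were 0.02 and −0.01. In hrde-1 class 1 had 0.09 and class 10 had 0.02. The same measure by position showed no separation: genes of autosome arms exceeded those of centres by 0.50, 0.54 and 0.61 (log2) at 23C, against 0.57 and 0.58 at p15C (exact permutation p = 0.6).

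**Figure D4:**
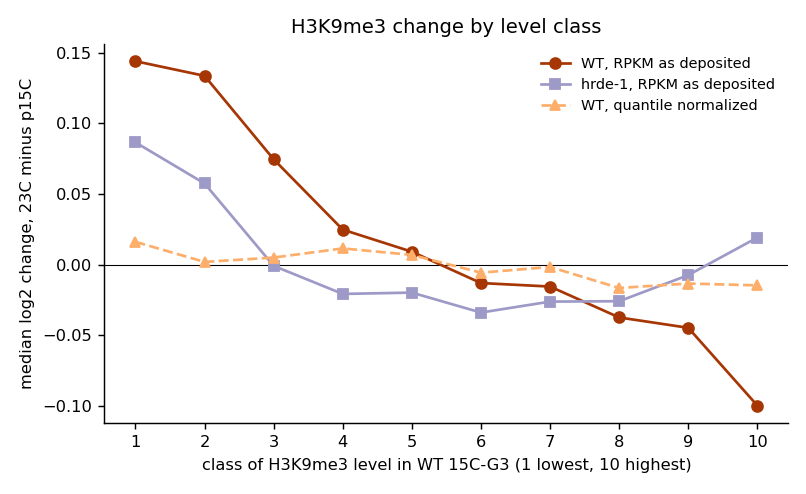
Median H3K9me3 change (23C minus p15C, log2(RPKM + 1)) in 10 classes of genes ordered by H3K9me3 in WT 15C-G3; circles are WT as deposited, squares hrde-1 as deposited, and triangles WT after quantile normalization. The WT line runs down from 0.14 to −0.10, and the quantile-normalized line stays near 0.

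The targets of germline nuclear RNAi, rich in the mark, had a median change near that of all genes in WT. NHGs are the nuclear RNAi-repressed heat-inducible genes, which the study chose on mRNA of this experiment, so the list is not independent evidence of a direction. The 39 high-stringent NHGs had a median of 23.6, 24.2 and 29.0 RPKM at 23C, against 24.9 and 26.2 RPKM at p15C, where the median gene had 6.79 to 8.03 RPKM at 23C and 7.42 to 7.58 RPKM at p15C. In 15C-G3 the NHG median was 28.9 RPKM. The paper compared 23C with 15C-G3 and reported a modest reduction of H3K9me3 in both strains. It did so for its full list of NHGs, of which the 39 are a part. It also reported that this effect of heat was transgenerational, and more pronounced in hrde-1 than in WT. Neither report was tested here, and a reduction that persisted into p15C would not appear in 23C minus p15C. The median change of the 39 was 0.00, beside 0.01 for all genes, with 19 above 0 and 20 below. The 39 are not all separate measurements. AC8.3 and AC8.10 have identical values, as do AC8.4 and AC8.11, and srh-1 and T11F9.10 overlap. The changes of all these genes were above 0. By limma 0 of 39 had an unadjusted p under 0.05, against 6.78% of all genes. In 3 of the 39 all heat libraries were above both recovery libraries (7.69%, against 12.3% of all genes). In 2 all were below (5.13%, against 9.49%), and in the other 34 the libraries overlapped. The 17 NHGs near an LTR retrotransposon had a median change of −0.11 and the other 22 had 0.05. Among the largest changes were R09H3.3, inside the X stretch, at −0.32, Y43F4A.3 at −0.29 and Y79H2A.4 at 0.25.

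The 6 NHGs with a cumulative response, named whatever their values, had small changes of both signs. F40D4.13 (V:17156002-17157223) had 37.03, 40.7 and 42.6 RPKM at 23C, against 43.6 and 45.1 RPKM at p15C, and 45.9 RPKM in 15C-G3. It was the 1 gene of the 6 whose groups did not overlap (16.7% below, against 9.49% of all genes), with a change of −0.14 (SE 0.17, adjusted p = 0.90). F41G4.7 had 39.5, 41.9 and 44.3 RPKM, against 37.1 and 47.4 RPKM, with the heat values between the recovery values. ZC15.3 had 41.1, 44.6 and 52.4 RPKM, against 42.9 and 58.6 RPKM, which overlap. F58H7.5 had 37.6, 44.6 and 41.7 RPKM, against 39.4 and 43.5 RPKM, C18D4.6 had 23.9, 24.2 and 29.6 RPKM, against 27.1 and 31.1 RPKM, and ZC15.10 had 16.43, 12.27 and 16.7 RPKM, against 14.3 and 14.8 RPKM. With changes of −0.16 to 0.04 and SE of 0.17 to 0.20, a decrease of the size seen at lido-8 lies outside the 95% intervals of these genes.

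The enzymes and Argonautes of the pathway were poor in H3K9me3 at their own genes. met-2 had 1.99, 2.24 and 2.55 RPKM at 23C, against 2.09 and 2.05 RPKM at p15C, set-25 had 2.72, 3.20 and 2.99 RPKM, against 2.95 and 2.52 RPKM, and set-32 had 3.90, 5.75 and 4.86 RPKM, against 5.83 and 6.43 RPKM. The groups of set-32 did not overlap (change −0.30, unadjusted p = 0.060, adjusted p = 0.75), while those of met-2 and set-25 did. hrde-1 had 2.92, 3.33 and 3.07 RPKM, against 3.05 and 3.58 RPKM. Of 25 H3K9 methylation and heterochromatin factors, 2 were higher at an unadjusted p under 0.05 (8%, against 3.86% of all genes) and 0 lower. They were set-23 and set-20, both SET-domain genes, with changes of 0.57 and 0.40, of which limma-voom called set-23, and the list had a median change of 0.12. Of 28 nuclear RNAi factors 1 was higher (3.57%, against 3.86%) and 3 were lower (10.7%, against 2.92%). Beside prg-1 they included the germline Argonaute wago-4, with 6.87, 5.06 and 5.40 RPKM at 23C against 7.41 and 8.89 RPKM at p15C, and rsd-6, a Tudor-domain gene of RNAi, with a change of 0.43.

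Heat shock genes had H3K9me3 changes of both signs, and neither limma nor limma-voom called any. hsp-16.48, a small heat shock protein, had 4.85, 5.18 and 4.43 RPKM of H3K9me3 at 23C, against 5.07 and 5.59 RPKM at p15C, and its Pol II change was 0.90 (adjusted p = 0.48). Of 22 heat shock and chaperone genes 2 were higher at an unadjusted p under 0.05 (9.09%, against 3.86% of all genes) and 2 lower (9.09%, against 2.92%). The higher were hsp-90 and hsp-12.2, with changes of 0.38 and 0.37, and the lower were hsp-16.1 and hsp-16.11, a pair of near-identical genes, with −0.32 and −0.30. fat-7, a fatty acid desaturase known for induction in the cold, had 9.63, 8.12 and 7.81 RPKM, against 7.41 and 9.17 RPKM, and a Pol II change of −0.95 (adjusted p = 0.14).

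Markers of the germline, muscle and intestine had more genes below than above. Of 31 germline and oocyte markers 0 had all heat libraries above both recovery libraries and 13 had all of them below (41.9%), against 12.3% above and 9.49% below over all genes, with a median change of −0.14. There were 5 lower at an unadjusted p under 0.05 (16.13%, against 2.92%) and 0 higher. Of 13 muscle markers all had a change under 0, and 6 had all heat libraries below (46.2%) and 0 above, with a median change of −0.10 and a median input change of 0.48, where all genes had −0.09. Of 14 yolk and intestine markers 5 had all heat libraries below (35.7%) and 1 above, with a median change of −0.12. Of 14 neuron markers 0 had them below and 2 above (14.3%), with a median change of 0.09. At an unadjusted p under 0.05 there were 0 muscle markers, and 1 yolk and 1 neuron marker, both higher. pgl-1, the founding P granule gene, had 5.36, 4.97 and 4.69 RPKM of H3K9me3 at 23C, against 8.106 and 6.67 RPKM at p15C (change −0.48, adjusted p = 0.41). rme-2, the yolk receptor of the oocyte, had 6.74, 5.40 and 5.52 RPKM, against 7.83 and 8.03 RPKM. The hrde-1 median of the germline list was −0.12, and its Pol II median was −0.11 with 0 called. The median germline marker had 4.27 to 5.36 RPKM of H3K9me3 at 23C and 5.18 to 5.47 RPKM at p15C.

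The 177 collagens had a median H3K9me3 change of −0.09, with 16 lower and 0 higher at an unadjusted p under 0.05. Pol II fell at 11 of them and rose at 0, where 0.298% of all genes were called lower, and without p15C-G2 only 1 gene of all was called lower. The summed Pol II of the list was 870 to 1291 RPKM at 23C and 1443 to 1904 RPKM at p15C, and its input change had a median of 0.52, so the H3K9me3 values of this list stand beside a shift of input and its part in them was not tested. The 70 core histone genes had a median of −0.16 (8 lower, 0 higher) and an input median of 0.29. Chemoreceptors, 1337 genes mostly on V and II, had −0.05 (15 higher, 52 lower), F-box genes −0.06 (13 higher, 33 lower of 362), and nuclear hormone receptors 0.03 (15 higher, 0 lower of 280). At the same unadjusted p all genes had 3.86% higher and 2.92% lower. The sperm genes, 61 in all, had −0.01.

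Where Pol II changed, the median H3K9me3 change was near 0. The Pol II contrast in the WT libraries called 75 genes higher (0.373%) and 60 lower (0.298%) of 20116, and 37 in each direction with a change of at least 2-fold (0.184% each, 0.368% together). On leaving out 1 library there were 0 to 119 called higher and 1 to 119 lower, with 0 and 1 without p15C-G2, 8 and 1 without p15C-G1, and 10 and 12 without 23C-G4, and with each library centred on its median 33 were called higher. At an unadjusted p under 0.05 there were 3.21% higher and 3.36% lower, 6.57% together. At the 75 genes with more Pol II, H3K9me3 had a median change of 0.02, with 6 higher (8%, against 3.86% of all genes) and 3 lower (4%, against 2.92%) at an unadjusted p under 0.05. In 17 of the 75 all heat libraries were above both recovery libraries (22.7%, against 12.3%), and in 7 all were below (9.33%, against 9.49%). At the 60 genes with less Pol II it had 0.01, with 1 higher (1.67%) and 2 lower (3.33%). In 1 of the 60 all heat libraries were above both recovery libraries (1.67%, against 12.3%). In 6 all were below (10%, against 9.49%). Over 20116 genes the 2 changes had r = 0.10, across genes of the same cultures, which are not independent replicates. The changes of H3K9me3 and of input had r = −0.01.

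At the extremes of Pol II the H3K9me3 changes were small. F45D3.4, the gene of largest increase, had 26.4, 39.1 and 19.6 RPKM of Pol II at 23C, against 7.59 and 2.80 RPKM at p15C (log2 change 2.31, adjusted p = 0.0174), and 8.17, 7.11 and 6.87 RPKM of H3K9me3, against 8.15 and 8.85 RPKM. col-160, a cuticle collagen, had 7.36, 4.11 and 18.9 RPKM of Pol II, against 47.4 and 43.3 RPKM (change −2.29, adjusted p = 0.0446), with an H3K9me3 change of −0.04. asp-12, an aspartyl protease, had 2.55, 2.23 and 3.02 RPKM of Pol II, against 14.1 and 12.4 RPKM (change −1.99, adjusted p = 0.0014), with an H3K9me3 change of 0.12.

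A few genes with a Pol II call also had an H3K9me3 change at an unadjusted p under 0.05, in every pairing of directions. Higher Pol II stood with lower H3K9me3 at lido-9, lido-12 and Y20F4.4. It stood with higher H3K9me3 at F09F7.6, which had 6.32, 7.63 and 5.04 RPKM of H3K9me3 at 23C against 3.86 and 3.18 RPKM at p15C, and at the overlapping T28F4.6 and dap-1, whose H3K9me3 changes were 0.51 and 0.47. Lower Pol II stood with lower H3K9me3 at the collagens col-8 and col-142, with H3K9me3 changes of −0.25 and −0.34, and with higher H3K9me3 at Y38E10A.23, with 0.66. None of these H3K9me3 changes passed the adjusted test of limma, and limma-voom called those of lido-9 (adjusted p = 0.0177) and Y20F4.4 (0.0994).

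**Figure D5:**
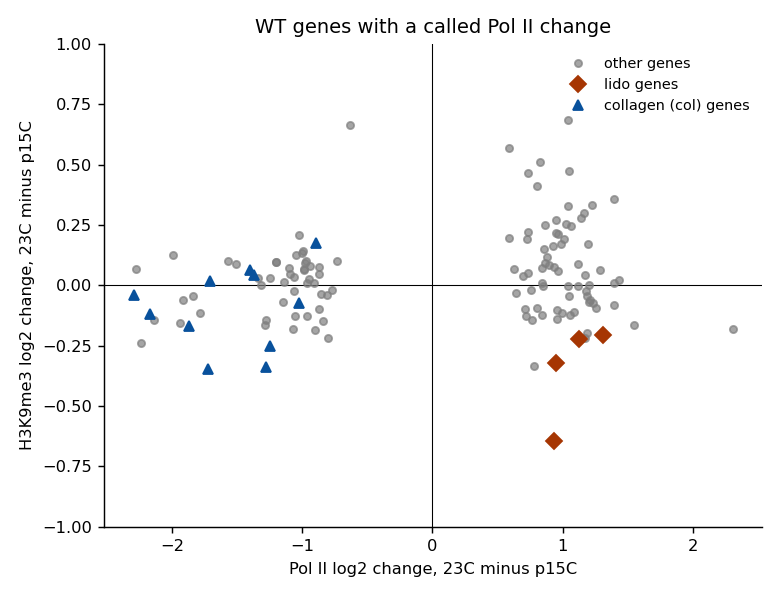
H3K9me3 change against Pol II change (both 23C minus p15C, log2(RPKM + 1)) at the 135 WT genes with a called Pol II change; diamonds are the 4 called lido genes, triangles the 11 called col genes and circles the others. Points lie on both sides of an H3K9me3 change of 0, with medians of 0.02 where Pol II was higher and 0.01 where it was lower, and the lowest, at −0.65, is lido-9.

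The change in WT was not shown to differ from that in hrde-1 at any gene. The test of the difference between strains called 0 of 20167 genes higher and 0 lower (0% called), with a smallest adjusted p of 0.47 and 577 genes at an unadjusted p under 0.05 (2.86%; 1.62% higher and 1.24% lower), and limma-voom called 0 higher and 2 lower. The same contrast within hrde-1 called 3 genes (0.0149%), lido-8 lower and the chemoreceptor genes srh-173 and srh-183 higher (0.00992%), both by over 2-fold. In hrde-1, srh-173 had 20.8 RPKM in 15C-G3, then 17.4, 15.8 and 8.96 RPKM at 23C and 4.33 and 3.67 RPKM at p15C. srh-183 had 15.7 RPKM, then 12.3, 9.22 and 5.46 RPKM, and 3.39 and 2.10 RPKM. Both were lower in each later generation sampled, so neither rose above its level before heat. At an unadjusted p under 0.05 hrde-1 had 1.97% of genes higher and 1.98% lower, 3.95% together. At F31A9.1 and prg-1 the hrde-1 changes were −0.27 and −0.18, where WT had −0.63 and −0.70. At meg-3 hrde-1 had 16.25, 17.7 and 17.5 RPKM at 23C, against 22.003 and 27.5 RPKM at p15C, a change of −0.50 with no overlap.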

How the data were processed

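H3K9me3, Pol II and input ChIP-seq of WT and hrde-1(tm1200) was taken from 1 table of the whole series. The authors aligned reads to WS190 with Bowtie 0.12.7 (submitters' processing notes), kept perfect alignments, counted both strands, and deposited RPKM per gene with no input subtraction. Strand is not kept, and RPKM steps fit gene lengths with 999 bp added, so overlapping and neighbouring genes share reads. Estimated reads, used for depth and for limma-voom only, came from these steps: 14595 of 20167 genes were whole within 0.05 reads in at least 50% of the H3K9me3 libraries. Intervals cover the spread between libraries. No entry is listed at 0.

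Of 20911 entries, 744 isoform entries were dropped. Names of 19562 genes came from RefSeq and of 605 from the table. Columns of other samples: 0. Repeat 1, mRNA and small RNA libraries were not analysed here. Genes averaging at least 1 RPKM in the mark tested and in input were kept, and log2(RPKM + 1) was fitted by limma 3.58.1 (R 4.3.3; trend on, group means of 12 libraries, 2-sided, adjusted p at most 0.1), with a scheme tested on simulated data. A fold change on this scale understates the change of low genes. The rule for named genes was the 10 loci of called genes, joined within 10 kb, with the largest change per direction, filled where too few were called by the genes of smallest p, plus 12 fixed genes; none was called, so all 20 are by smallest p. Members and gene lists were chosen with earlier results of these data known. Alternatives changed pseudocount, filter, scaling, input, trend, library set and tool; 250 kb windows and leaving out libraries at lido-8 in hrde-1 were added after seeing the data.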

Additional observations from a re-analysis of the deposited data

How the results depend on the processing

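The count of genes called in WT H3K9me3, 0 higher and 0 lower, stayed at 0 with pseudocounts of 0.5 and 2, no filter, median centring, quantile normalization, no trend, genes with whole reads only and the fit over the 5 WT libraries. It was 0 higher and 6 lower with a mean of at least 3 RPKM, 3 and 8 with input subtracted, 61 and 64 by limma-voom, 5 and 13 with 15C-G3 and p15C as 1 group, and 11 and 3 over 250 kb windows. Leaving out 1 library gave 0 to 2 higher and 0 to 6 lower. With the 3 RPKM filter fewer genes were tested, and the unadjusted p by limma also fell, at lido-8 from 1.07e-05 to 7.09e-06. The cause of these differences between settings was not tested. For the difference between strains, input subtraction gave 22 higher and 3 lower, limma-voom 0 and 2, and leaving out 1 library 0 higher and 0 to 2 lower. The Pol II calls were 33 higher with median centring, and 0 to 119 higher and 1 to 119 lower on leaving out 1 library, with 0 higher and 1 lower without p15C-G2, 8 and 1 without p15C-G1, 10 and 12 without 23C-G4, 94 and 105 without 23C-G2, and 119 and 119 without 23C-G6.

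No paired analysis was possible because the WT heat and recovery libraries are different generations and share no pairs of cultures. For the difference between strains, generation as replicate block called 0 genes, with 907 at an unadjusted p under 0.05. Over genes, deviations from the group means in WT and hrde-1 libraries of a generation had r of 0.104, 0.0518, 0.207, 0.119 and 0.119. The last 2, of p15C, are equal by construction, since 2 libraries deviate from their mean by the same amount. What the libraries of a generation share was not tested further.

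Of the 20 genes of smallest p, 17 were called by limma-voom, and the sign changed only for C34C12.9, at −0.19 with input subtracted. Signs that changed near 0 were those of fixed genes. F41G4.7 had 0.0055 with median centring, 0.107 with quantile normalization, 0.0072 by limma-voom and −0.176 to 0.171 on leaving out 1 library. ZC15.10 had −0.534 with input subtracted and −0.031 to 0.177 on leaving out 1 library. F58H7.5 had 0.0011 with median centring, 0.106 with quantile normalization and −0.0759 to 0.0617 on leaving out 1 library. ZC15.3 had 0.013 with quantile normalization and −0.349 to 0.0907 on leaving out 1 library. fat-7 had −0.426 with input subtracted and −0.101 to 0.174 on leaving out 1 library. hrde-1 had −0.159 to 0.0187 on leaving out 1 library, met-2 −0.0432 and set-25 −0.0518 with quantile normalization, set-25 −0.0329 with 15C-G3 and p15C as 1 group, and set-32 0.047 with input subtracted. With input subtracted prg-1, Y73B3A.1, Y53G8AM.2, twk-46, Y53G8AL.4, hrde-1, met-2 and set-25 were at 0 in both groups and gave no value. The median of the 79 genes of the X stretch was −0.31 without p15C-G2 (30 genes at an unadjusted p under 0.05), −0.28 with quantile normalization and −0.50 without p15C-G1. Shallow input (0.230 to 0.790 M reads in WT) limits every input-subtracted value.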
